A study of Mus musculus with 6 samples.

Results

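Id1, Id2, Id3 and Id4 are the 4 genes of the inhibitor of DNA binding (Id) family, and they were taken by symbol from a table of 32285 genes. Each was followed across cell types, astroglial sub-clusters, pseudotime and age in single-cell RNA-seq of the mouse striatum. The 6 libraries came from wild-type C57BL/6 males without treatment or transgene, 3 taken on postnatal day 3 (P3) and 3 from mice aged 3 months (3m). Astrocytes were enriched through their surface antigen ACSA2, with magnetic beads, from tissue that the study's methods describe as striatum without the subventricular zone. Each library was 1 preparation that pooled several animals, so p-values measure the spread between such preparations. The comparison of the ages asks how striatal astrocytes change as they mature.

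Id proteins carry a helix-loop-helix domain, through which proteins pair, but lack the basic region that binds DNA. They pair with the E proteins encoded by Tcf3, Tcf4 and Tcf12 and so keep these from pairing with class II factors such as Olig2, which bind DNA only as part of such a pair. Id genes are known as direct targets of bone morphogenetic protein (BMP) signalling through Smad proteins. In the brain they are known for maintaining neural stem cells and for favouring astrocytes over neurons and oligodendrocytes.

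The authors named 24 clusters of cells and 17 sub-clusters of astroglial cells (astrocytes and their progenitors), and these names were used here. Of 14373 annotated cells, 8874 were astroglial cells of P3 and 1118 of 3m. By library these were 1985, 3103 and 3786 cells in P3 replicates 1, 2 and 3, with 22327104, 30617140 and 24582417 UMIs (unique molecular identifiers, 1 for each transcript molecule captured). At 3m they were 213, 546 and 359 cells, with 1157485, 1843998 and 1472498 UMIs. All 10 fixed astrocyte markers were detected in the cells named astrocytes. Mitochondrial UMIs made up 1.27 to 2.47% of the median astroglial cell at P3 and 5.97 to 8.18% at 3m. Some sub-clusters came almost wholly from 1 library, namely sub-cluster 1 from P3 replicate 1, sub-clusters 4 and 12 from P3 replicate 3, sub-cluster 14 from 3m replicate 1 and sub-cluster 16 from 3m replicate 2. In all, 37 barcode sequences occurred in more than 1 library. Levels below are CPM, the gene's UMIs per 1000000 UMIs of the same summed cells. UMIs were counted from transcript 3′ ends, so these levels do not scale with transcript length.

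The genes lie apart in the genome (mm10 coordinates of the GENCODE M21 annotation). Id1 (ENSMUSG00000042745.9) is at chr2:152736251-152737410 and Id3 (ENSMUSG00000007872.3) at chr4:136143497-136145755, both on the plus strand. Id2 (ENSMUSG00000020644.9) is at chr12:25093799-25097140 on the minus strand, and Id4 (ENSMUSG00000021379.2) at chr13:48261228-48266026 on the plus strand. None overlaps another annotated gene except Id4, which overlaps A330033J07Rik and Gm49291 on the opposite strand. Each of the latter had between 1 and 10 UMIs in the astroglial cells of any library.

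Sequence around the transcription start is shown for Id2 and Id4, the members whose levels rose with age in astroglial cells. RefSeq promoter sequences (GRCm38.p6) were found for 3 of the 4 members, Id2, Id3 and Id4. RefSeq's starts differ from the GENCODE gene ends given above. The Id4 sequence is the 250 bases before RefSeq's start, chr13:48260866-48261115, and lies outside the GENCODE gene. The Id2 window of this length lies within the longer GENCODE gene, and only the 89 bases of it outside annotated exons are shown, chr12:25096254-25096342, read on the minus strand. The Id3 window lies wholly in GENCODE exons and is not shown or described. Capitals mark GGCGCC, a GC-rich hexamer known from BMP response elements, and CCAAT, a common promoter element that reads ATTGG on the other strand.
Id4: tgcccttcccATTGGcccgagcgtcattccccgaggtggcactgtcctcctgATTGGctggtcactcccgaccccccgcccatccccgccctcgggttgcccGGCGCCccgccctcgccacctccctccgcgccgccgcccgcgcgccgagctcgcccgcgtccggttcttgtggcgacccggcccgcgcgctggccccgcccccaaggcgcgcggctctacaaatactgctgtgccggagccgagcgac
Id2: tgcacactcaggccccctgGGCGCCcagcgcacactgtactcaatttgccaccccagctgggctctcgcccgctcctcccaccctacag

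Both strands of the printed sequences were searched. GGCGCC occurred 1 time in the Id4 and 1 time in the Id2 sequence, while 9.59% of 32851 mouse promoter windows of 250 bases held it. CCAAT occurred 2 times in the Id4 sequence, and 33.8% of the windows held it. It was not found in the printed Id2 sequence, but the whole Id2 window of 250 bases held it 3 times. CANNTG, the E-box bound by E protein pairs, occurred 1 time in the Id2 sequence and was not found in that of Id4, and 66.2% of the windows held it. The Id2 sequence is shorter than these windows, so the shares are not matched to it. The Id4 sequence is 75.6% G and C, and the windows were not matched for this either. These matches describe letters in a window and are not evidence of binding.

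In astroglial cells as a whole, Id4 and Id2 rose between P3 and 3m, Id1 was lower at 3m by slightly less than the required fold, and Id3 did not pass the test. A gene was called when its log2 fold change was 1 or more in size and its adjusted p no higher than 0.05 in edgeR's quasi-likelihood test over 13530 genes. Of these genes, 15.8% were called higher at 3m and 16.3% lower, 32.1% in all, and 48.9% had such a p at any fold, so a call was common in this comparison.

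Id4, an Id member known from neural stem cell quiescence, was measured at 126, 131 and 129 CPM in P3 replicates 1, 2 and 3. At 3m the values were 691, 386 and 393 CPM. The P3 libraries lay close together and every 3m library was above them, with 3m replicate 1 the highest. The log2 fold change was 2.11 (SE 0.22, adjusted p = 6.6e-06, edgeR), and it was 1.75 without 3m replicate 1.

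Id2, known from lymphoid and neural lineage choice, was at 442, 274 and 298 CPM at P3 and at 977, 557 and 557 CPM at 3m. Replicate 1 was the highest library at both ages, and the ages did not overlap. The rise was 1.23 on the log2 scale (SE 0.25, adjusted p = 0.0012, edgeR). It depended on 3m replicate 1 for its call, since without that library the log2 fold change was 0.88, under the required 1 (adjusted p = 0.0099, edgeR).

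Id1, the member most studied as a BMP target, was at 339, 183 and 167 CPM at P3 and at 147, 80.8 and 88.3 CPM at 3m. Again replicate 1 was the highest library at each age. The libraries of the ages did not overlap, and the log2 fold change was -0.95 (SE 0.28, adjusted p = 0.012, edgeR). It was past the required fold without 3m replicate 1 (-1.29), without P3 replicate 2 (-1.01) and without P3 replicate 3 (-1.11), and it was -0.56 without P3 replicate 1.

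Id3 was the most abundant member at P3, at 1035, 1169 and 1012 CPM. At 3m it was at 803, 749 and 958 CPM, with every library below those of P3. After TMM scaling its log2 fold change was -0.17, with an approximate 95% interval from -0.58 to 0.23 (adjusted p = 0.51, edgeR). Libraries of the ages did not overlap by CPM for any of the 4 members, as for 59.0% of all genes tested.

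**Figure D1:**
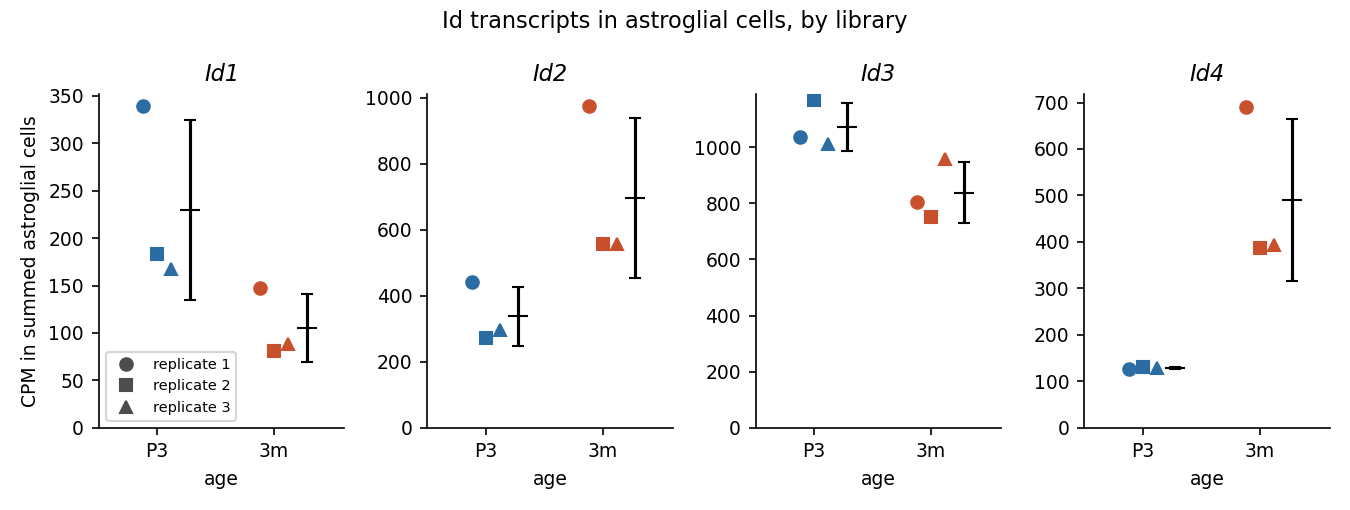
CPM of each Id gene in the summed astroglial cells of each library at P3 (blue) and 3m (orange), with the mean and SD over 3 libraries in black. Id4 lies at 126 to 131 CPM in the P3 libraries and at 386 to 691 CPM in the 3m libraries, and Id3 lies at 749 CPM or more in all 6 libraries.

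The proportions of the members among Id transcripts differed between the ages, while their summed level overlapped. The sum was 1768 ± 168 CPM at P3 and 2130 ± 438 CPM at 3m (mean ± SD, n = 3 libraries each), with libraries at 1606 to 1942 CPM and 1774 to 2619 CPM. Among Id UMIs of astroglial cells, Id3 made up 61.0 ± 6.85% at P3 and 40.3 ± 8.82% at 3m. Id1 made up 12.8 ± 4.06% and 4.86 ± 0.65%. Id2 accounted for 18.95 ± 3.6% at P3 and 32.2 ± 4.76% at 3m, and Id4 for 7.32 ± 0.77% and 22.6 ± 3.43%. Shares of 1 total are not independent of each other. In each of the 4 shares the libraries of the ages did not overlap, which gives p = 0.1 in the two-sided exact permutation test (adjusted over the 4 members also 0.1). With 3 libraries against 3 this is the smallest p the test can give.

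The share of cells with a UMI was higher in every 3m library for Id2 and Id4. Cells were thinned to 2000 UMIs so that depth did not set the share, which left out 1113 of 8874 P3 cells and 212 of 1118 cells at 3m. In P3 replicates 1, 2 and 3 it kept 1937 of 1985, 2985 of 3103 and 2839 of 3786 cells, so most cells left out at P3 were of replicate 3. Id4 was then found in 21.2, 24.2 and 23.9% of astroglial cells in the P3 libraries and in 68.0, 47.4 and 52.0% in the 3m libraries. Id2 was found in 48.6, 32.9 and 36.1% of cells at P3 and in 75.6, 63.2 and 63.2% at 3m. For both genes the ages did not overlap (p = 0.1, adjusted p = 0.2, two-sided exact permutation test). Without thinning the shares were 48.8 ± 6.36% and 72.0 ± 16.3% for Id4 and 63.4 ± 13.6% and 76.5 ± 12% for Id2.

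Id3 was found in 62.9 ± 4.25% of thinned cells at P3 and 64.8 ± 7.53% at 3m (p = 0.8, two-sided exact permutation test, n = 3). Id1 was found in 28.5 ± 8.22% and 17.9 ± 8.67% (p = 0.3, two-sided exact permutation test, n = 3), and the libraries overlapped. Unthinned shares were 80.0 ± 10.5% and 75.6 ± 9.66% for Id3 and 52.6 ± 13.1% and 32.1 ± 15.7% for Id1. For comparison, 3m oligodendrocytes of the same libraries, with a median of 5420 UMIs against 3631 in 3m astrocytes, held a UMI of Id1, Id2, Id3 and Id4 in 0.530, 3.48, 3.30 and 2.53% of 1697 thinned cells. Endothelial cluster 7 at P3, with a median of 26510 UMIs against 6714 in P3 astrocytes, held Id4 in 1 of 604 thinned cells.

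Members were also counted together within a cell. In thinned cells, exactly 3 members were found in 15.4 ± 3.85% of P3 cells and 29.0 ± 5.11% of 3m cells, and all 4 in 3.13 ± 1.77% and 5.65 ± 5.66%. No member was found in 15.9 ± 3.59% of P3 cells and in 5.98 ± 3.6% of 3m cells. Cells holding Id4 together with Id1 or Id3 were 15.95, 12.5 and 12.6% at P3 and 49.2, 31.6 and 39.8% at 3m. These shares are given as a description.

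Markers of other cell types in the astroglial sums were compared between the ages. The 10 endothelial markers summed to 19.4 to 41.1 CPM at P3 and 1.73 to 6.11 CPM at 3m, against 6380 CPM in endothelial cluster 7 and 17466 CPM in endothelial cluster 17. At 3m, 6 to 8 of the 10 were at 0, with Flt1, Cdh5, Emcn and Ptprb at 0 in every library. The 9 oligodendrocyte markers summed to 126 to 146 CPM at P3 and 854 to 2110 CPM at 3m, and 8 of 9 were called higher at 3m. In oligodendrocytes themselves they summed to 44799 CPM while each Id member averaged 24.1 CPM or less, and the part of these markers in the Id changes was not tested. The 9 immediate early genes, which are induced within minutes of a stimulus, summed to 3216 to 4074 CPM at P3 and 120 to 183 CPM at 3m, and all 9 were called lower. The part of this difference in the Id levels cannot be told apart from age and was not tested. When cells with 2 or more UMIs of other types' markers were left out, Id2 and Id4 were still called (log2 fold changes 1.16 and 2.46).

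The age changes of all 4 members differed between the lineages of astroglial sub-clusters. The study matched 7 sub-clusters to telencephalic and 8 to non-telencephalic reference astrocytes, and named 2 as progenitors. It proposes that the non-telencephalic cells may be contaminants from regions next to the striatum. These cells were 151 of 1985, 906 of 3103 and 1949 of 3786 astroglial cells in P3 replicates 1, 2 and 3. At 3m they were 17 of 213, 261 of 546 and 50 of 359. The astroglial sums above thus mix the lineages in parts that differ by library. An interaction of age and lineage was fitted with library as a block over 10181 genes, of which 8.85% were called with a more positive and 8.23% with a more negative change in telencephalic cells, 17.1% in all (22.3% by adjusted p at any fold). All 4 members were called. So were 4 of 9 immediate early genes, 1 with the more positive and 3 with the more negative change, and their part in the Id differences was not tested. Lineages were defined from the expression of the same cells, with the Id genes among the genes measured, so these tests are not independent of the clustering. Whether non-telencephalic cells of the ages came from the same places was not tested.

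Id4 rose in telencephalic sub-clusters, from 126, 73.7 and 78.1 CPM at P3 to 713, 520 and 413 CPM at 3m. In non-telencephalic sub-clusters it was already at 523, 397 and 284 CPM at P3 and lay at 309, 238 and 286 CPM at 3m. Telencephalic cells thus had less Id4 than non-telencephalic cells in each P3 library and more in each 3m library. The log2 fold change was 2.77 in telencephalic cells (adjusted p = 7.5e-10, edgeR) and -0.26 in the others (adjusted p = 0.49, edgeR). The difference between these changes was 3.05 (SE 0.20, adjusted p = 5.9e-12, edgeR).

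For Id2, the larger rise was in non-telencephalic cells. It was at 116, 62.1 and 142 CPM there at P3 and at 619, 619 and 664 CPM at 3m, which is 2.90 on the log2 scale (adjusted p = 6.7e-10, edgeR). In telencephalic cells it was at 555, 405 and 465 CPM at P3 and at 997, 502 and 537 CPM at 3m, where the log2 fold change, 0.71, did not reach 1 (adjusted p = 0.011, edgeR). The P3 gap between the lineages was absent in 3m replicates 2 and 3, where telencephalic cells had the lower level. The change in telencephalic cells was below that in the others by a log2 difference of -2.29 (SE 0.26, adjusted p = 1.0e-07, edgeR).

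Id1 fell in telencephalic cells, from 372, 220 and 210 CPM to 152, 85.6 and 80.5 CPM (log2 fold change -1.13, adjusted p = 0.00031, edgeR). In non-telencephalic cells it was at 137, 56.4 and 82.2 CPM at P3 and 48.8, 75.5 and 130 CPM at 3m, where the libraries overlapped. The difference of the changes was -1.59 (SE 0.29, adjusted p = 0.00016, edgeR).

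Id3 showed the smallest difference between the lineages, -1.09 (SE 0.26, adjusted p = 0.0025, edgeR). Its telencephalic levels were 1162, 1523 and 1411 CPM at P3 and 838, 1030 and 998 CPM at 3m. Non-telencephalic levels were 304, 295 and 349 CPM at P3 and 195, 438 and 742 CPM at 3m. The call for Id3 was lost without 3m replicate 3 (-0.71, adjusted p = 0.074, edgeR), without P3 replicate 2 (-0.96, adjusted p = 0.0097, edgeR) and in DESeq2 (-0.96, adjusted p = 0.078).

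Non-telencephalic cells were few at 3m, with 17, 261 and 50 cells in replicates 1, 2 and 3, so the first of these libraries rests on 3 UMIs of Id1, 38 of Id2, 12 of Id3 and 19 of Id4. Without it the differences were -1.79, -2.54, -1.27 and 2.99 for Id1 to Id4, and all were called.

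**Figure D2:**
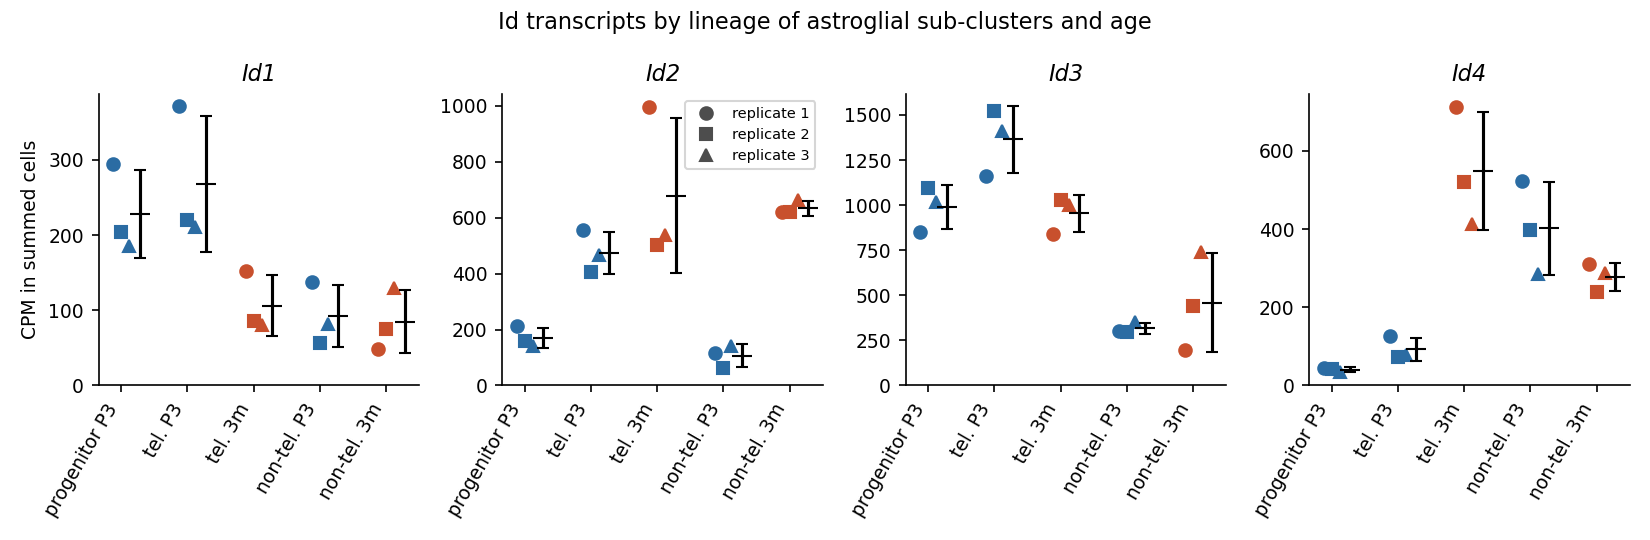
CPM of each Id gene in progenitor, telencephalic (tel.) and non-telencephalic (non-tel.) sub-clusters at P3 (blue) and 3m (orange), 1 point per library, with mean and SD in black. Id4 is above 400 CPM in telencephalic cells at 3m and below 130 CPM at P3, whereas its non-telencephalic levels overlap between the ages, and Id2 in non-telencephalic cells goes from at most 142 CPM to at least 619 CPM.

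Within P3, the make-up of Id transcripts followed the groups of sub-clusters. The sub-clusters were built from these cells, so their levels are given as a description. In the 5 telencephalic sub-clusters with P3 cells (0, 1, 2, 9 and 11), Id3 made up 52.0 to 74.0% of the summed Id level and Id4 1.43 to 5.80%. In the non-telencephalic sub-clusters 3, 5, 10 and 15, Id4 made up 44.4 to 57.6% and Id3 21.3 to 34.1%. The highest Id3 level of any sub-cluster was in telencephalic sub-cluster 9, at 2073 ± 329 CPM (n = 2 libraries), where Id2 was at 797 ± 6.04 CPM. Sub-cluster 10 had the lowest Id3 level, 141 ± 61.4 CPM (n = 3). Among non-telencephalic sub-clusters the highest Id4 level was in sub-cluster 3, at 461 ± 128 CPM (n = 3).

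Sub-clusters 4 and 12, from P3 replicate 3 alone, stood apart from the other non-telencephalic ones, with Id3 at 857 and 788 CPM and Id4 at 187 and 121 CPM. Without these and sub-cluster 16 the interaction values were -1.93, -2.83, -1.49 and 3.17 for Id1 to Id4, all called.

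Telencephalic sub-cluster 2 had Id2 and Id4 levels near those of the progenitors. Its Id2 level was 201 ± 28.8 CPM and its Id4 level 26.9 ± 3.09 CPM (n = 3). In the progenitor sub-clusters 6 and 8, Id2 was at 197 ± 46.3 and 138 ± 33.6 CPM and Id4 at 40.8 ± 7.47 and 40.8 ± 2.96 CPM. Id2 was at 449 ± 35.9 CPM in sub-cluster 0 and at 697 ± 132 CPM in sub-cluster 11, and Id4 at 117 ± 31.2 and 67.3 ± 11.7 CPM, without overlap with sub-cluster 2 for either gene.

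**Figure D3:**
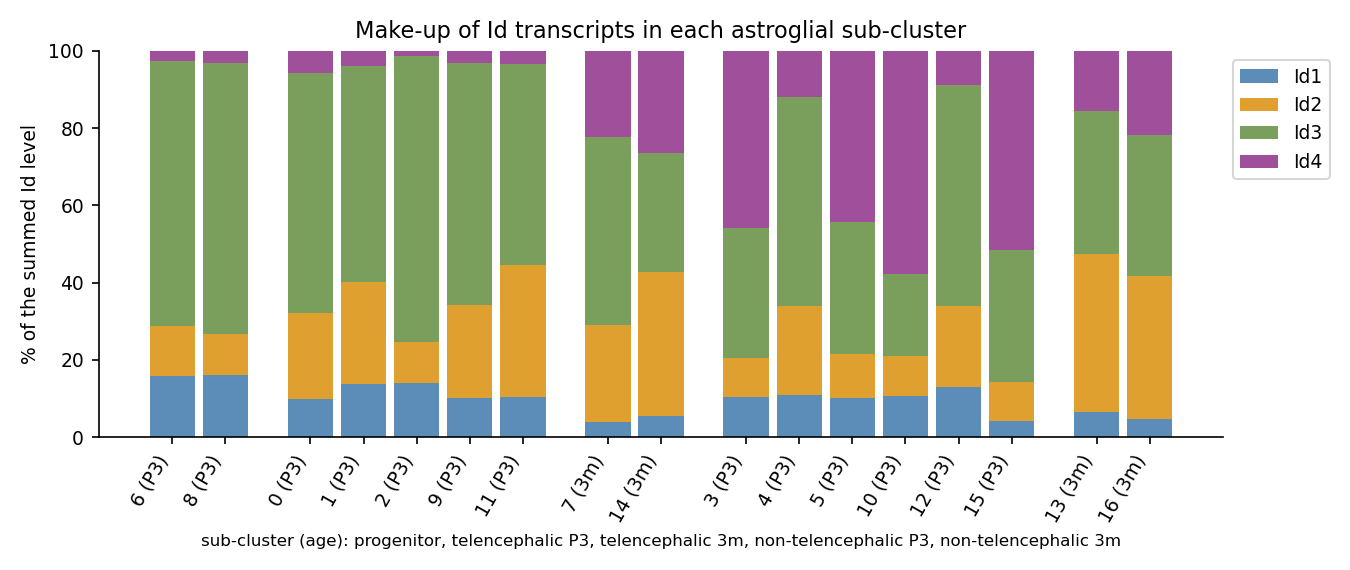
Share of each Id gene in the summed Id level (mean CPM over libraries of at least 20 cells) for each astroglial sub-cluster, as stacked bars that add to 100%. Id4 takes 44.4 to 57.6% in non-telencephalic sub-clusters 3, 5, 10 and 15 at P3 and 1.43 to 5.80% in the telencephalic ones at P3, and 15.7 to 26.5% in the 4 sub-clusters at 3m.

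Along pseudotime, Id2 and Id4 were low until bin 11 and higher from bin 13, while Id1 and Id3 showed no such step. Pseudotime is the authors' ordering of cells of their main striatal lineage from cycling progenitors, cut into 20 bins. It was built from expression, so these levels are a description. All P3 cells lay in bins up to 15 and all but 4 of 790 cells at 3m from bin 15 on, so age and late pseudotime cannot be told apart. Id2 was at 145 ± 29.5 CPM in bins 2 to 11, 246 ± 10.4 CPM in bin 12 and 459 ± 16.9 CPM in bins 13 and 14 of the P3 libraries (n = 3). None of these 3 ranges overlapped. In the 3m libraries it was at 504 to 1011 CPM in bins 16 to 19, above every P3 library.

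Id4 was at 32.9 ± 1.33 CPM in bins 2 to 11, 43.0 ± 6.16 CPM in bin 12 and 107 ± 15.8 CPM in bins 13 and 14 (n = 3), and at 413 to 725 CPM in bins 16 to 19 at 3m. The step from bin 12 to bins 13 and 14 took place among P3 cells. Id1 was at 238 ± 61.2, 240 ± 67.8 and 210 ± 36.2 CPM in the same stretches at P3 and at 80.7 to 150 CPM in bins 16 to 19. Id3 was at 1008 ± 115, 1456 ± 205 and 1200 ± 273 CPM at P3 and at 849 to 1029 CPM in bins 16 to 19. Its highest level along P3 pseudotime was in bin 12, where the lowest library (1236 CPM) was above every library of bins 2 to 11 but not above those of bins 13 and 14.

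**Figure D4:**
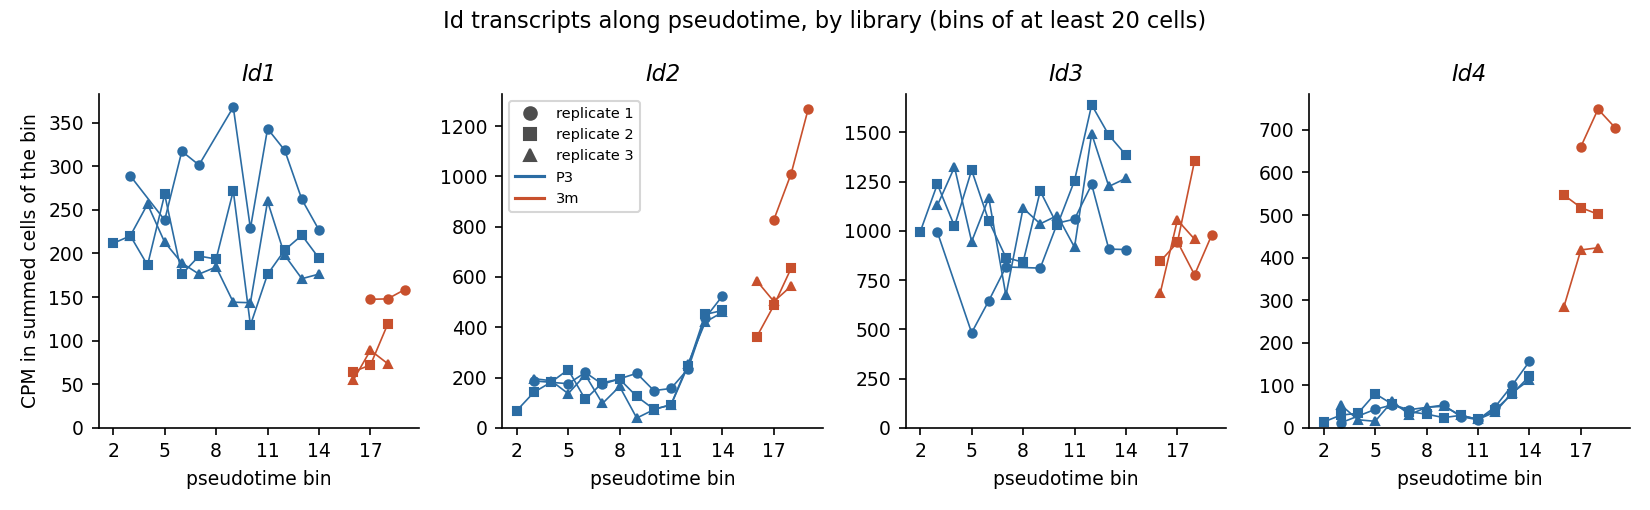
CPM of each Id gene in the summed cells of each pseudotime bin, 1 line per library at P3 (blue) and 3m (orange), for bins with at least 20 cells of the library. Id2 and Id4 turn up from bin 12 in each of the 3 P3 libraries. Some earlier bins lie further apart by library, with Id2 at 38.9 to 217 CPM in bin 9. Single bins from 16 on lie at 362 to 1268 CPM of Id2 and 283 to 749 CPM of Id4 in the 3m libraries.

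Cycling cells at P3 had less Id4 than non-cycling cells, and less Id2 by under the required fold. Astroglial cells thinned to 2000 UMIs were called cycling when at least 2 of Mki67, Top2a and Cdk1, genes of dividing cells, had a UMI. Cells with a UMI of none of the 3 were called non-cycling, and cells with a UMI of only 1 were in neither class. This gave 163, 218 and 210 cycling and 1634, 2557 and 2393 non-cycling cells in P3 replicates 1, 2 and 3. Over 10142 genes, with library as a block, 7.32% were called higher and 6.55% lower in cycling cells, 13.9% in all (30.5% by adjusted p at any fold). Id4 was at 61.3, 68.8 and 66.7 CPM in cycling cells and at 161, 184 and 168 CPM in non-cycling cells (log2 fold change -1.33, SE 0.15, adjusted p = 2.7e-11, edgeR). Id2 was at 255, 181 and 169 CPM against 517, 280 and 331 CPM (log2 fold change -0.82, SE 0.11, adjusted p = 3.1e-09, edgeR). For both genes every cycling value was below every non-cycling one.

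Id1 was at 282, 202 and 193 CPM in cycling cells and 343, 189 and 148 CPM in non-cycling cells (log2 fold change 0.10, approximate 95% interval -0.12 to 0.31, adjusted p = 0.57, edgeR). Id3 was at 687, 1032 and 807 CPM against 1083, 1105 and 966 CPM (log2 fold change -0.26, SE 0.09, adjusted p = 0.016, edgeR).

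The Id4 difference depended on the cells used for comparison. Among telencephalic and progenitor sub-clusters alone its log2 fold change was -0.55 (adjusted p = 0.013, edgeR), under the required fold, and Id2 was called at -1.20. Sub-clusters 2, 6 and 8 held most cycling cells, with 316000 of 326000, 426000 of 436000 and 352000 of 420000 UMIs of thinned cycling cells in P3 replicates 1, 2 and 3. This set was chosen after the data were seen, and its low Id4 level, described above, was known, so the values within it are a description. Id4 there was at 63.3, 65.7 and 48.3 CPM in cycling cells and at 38.6, 37.0 and 24.1 CPM in non-cycling cells. That is a log2 fold change of 0.83, opposite in sign to that over all astroglial cells but not past the required fold. It comes from 65 UMIs of Id4 in cycling and 73 in non-cycling cells. Id2 there had a log2 fold change of -0.09.

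Across cell types, Id1 and Id3 were highest in endothelial cells, astrocytes and progenitors, whereas Id2 and Id4 were highest in astrocytes. Levels are means over libraries with at least 20 cells of the type. Clusters were built from these cells, so the order is a description. In endothelial cluster 17 of the 3m libraries, Id1 was at 798 ± 427 CPM and Id3 at 1648 ± 201 CPM (n = 3). The Id3 libraries there lay between 1432 and 1829 CPM, above those of astrocytes at P3 (1115 ± 89.4 CPM, highest 1209). From there down, neighbours in the Id3 order overlapped through endothelial cluster 13 (1086 ± 574 CPM, n = 2), progenitors (991 ± 145 CPM), 3m astrocytes (837 ± 108 CPM), endothelial cluster 7 of P3 (744 ± 35.3 CPM) and P3 pericytes (613 ± 154 CPM). Oligodendrocyte precursors at P3 (273 ± 127 CPM, n = 2) lay below all of these, and oligodendrocytes at 3m were the lowest, at 24.1 ± 3.05 CPM.

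The Id1 order had the same leading types, with endothelial cluster 13 at 607 ± 504 CPM (n = 2), endothelial cluster 7 at 330 ± 176 CPM, P3 astrocytes at 234 ± 105 CPM and progenitors at 228 ± 57.4 CPM. Each of these overlapped the next in order by library, but cluster 17 lay above P3 astrocytes, at 409 CPM or more against at most 355. The place of cluster 13 rests on P3 replicate 1, at 964 CPM from 53 UMIs, against 251 CPM in P3 replicate 3. Pooled over all libraries, cluster 13 was at 278 CPM of Id1 and 732 CPM of Id3, against 346 and 742 CPM in cluster 7. Cells of cluster 13 were shallow, with a median of 1362 UMIs against 26510 in cluster 7. The 3m astrocytes, at 105 ± 36.2 CPM, were below the progenitors in every library. Pericytes at P3 had 76.1 ± 40.5 CPM of Id1 and 613 CPM of Id3.

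Id2 was highest in 3m astrocytes (697 ± 242 CPM), next in P3 astrocytes (394 ± 107 CPM) and then in progenitors (169 ± 36.0 CPM). The 3m astrocytes lay above the P3 astrocytes, and these above the progenitors, in every library. Microglia at P3 followed at 142 ± 89.5 CPM (n = 3), overlapping the progenitors. In endothelial clusters 7 and 17, Id2 was at 20.1 ± 7.14 and 80.2 ± 21.5 CPM. It was at 127 ± 52.3 CPM in endothelial cluster 13 (n = 2). Endothelial cluster 12, with a median of 1251 UMIs per cell and a value from P3 replicate 3 alone, had 299 CPM of Id2. Of the neurons, which had at least 20 cells in 1 library only, P3 replicate 2, Id2 was at 601 CPM.

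Outside astroglial cells Id4 was low in most types. It was at 490 ± 174 CPM in 3m astrocytes, 312 ± 45.9 CPM in cluster 19 at P3 (n = 2), 151 ± 4.18 CPM in P3 astrocytes and 41.0 ± 4.82 CPM in progenitors, and these 4 ranges did not overlap. All other types with values from 2 or more libraries averaged 25.3 CPM or less. Exceptions had values from 1 library each. Cluster 23, which the authors left unidentified, was at 460 CPM of Id4 in 27 cells of P3 replicate 2. Endothelial cluster 12 was at 84.8 CPM in 346 cells of P3 replicate 3, and neurons at 66.3 CPM in P3 replicate 2. Cluster 19, which the authors named astrocytes, had the markers of multiciliated cells at a summed 4351 CPM, and its Id4 was above its Id3 (213 ± 32.7 CPM), the reverse of P3 astrocytes. Endothelial clusters 7 and 17 had 1.90 ± 1.40 and 8.05 ± 6.41 CPM of Id4. Endothelial cluster 13 had 23.2 ± 7.12 CPM (n = 2).

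Astroglial cells held unequal shares of the members' UMIs. Astroglial cells held 73.6 ± 6.74% of all UMIs of annotated P3 cells, 95.8 ± 0.94% of Id4 UMIs and 95.7 ± 1.36% of Id2 UMIs, but 81.7 ± 7.41% of Id3 and 71.9 ± 11.2% of Id1 UMIs. At 3m they held 26.1 ± 7.46% of all UMIs, 88.0 ± 6.93% of Id4, 89.1 ± 2.77% of Id2, 61.3 ± 10.4% of Id3 and 34.7 ± 13.8% of Id1 UMIs. Endothelial clusters, with 7.12 ± 2.62% of all UMIs at 3m, held 62.3 ± 13.4% of the Id1 UMIs.

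**Figure D5:**
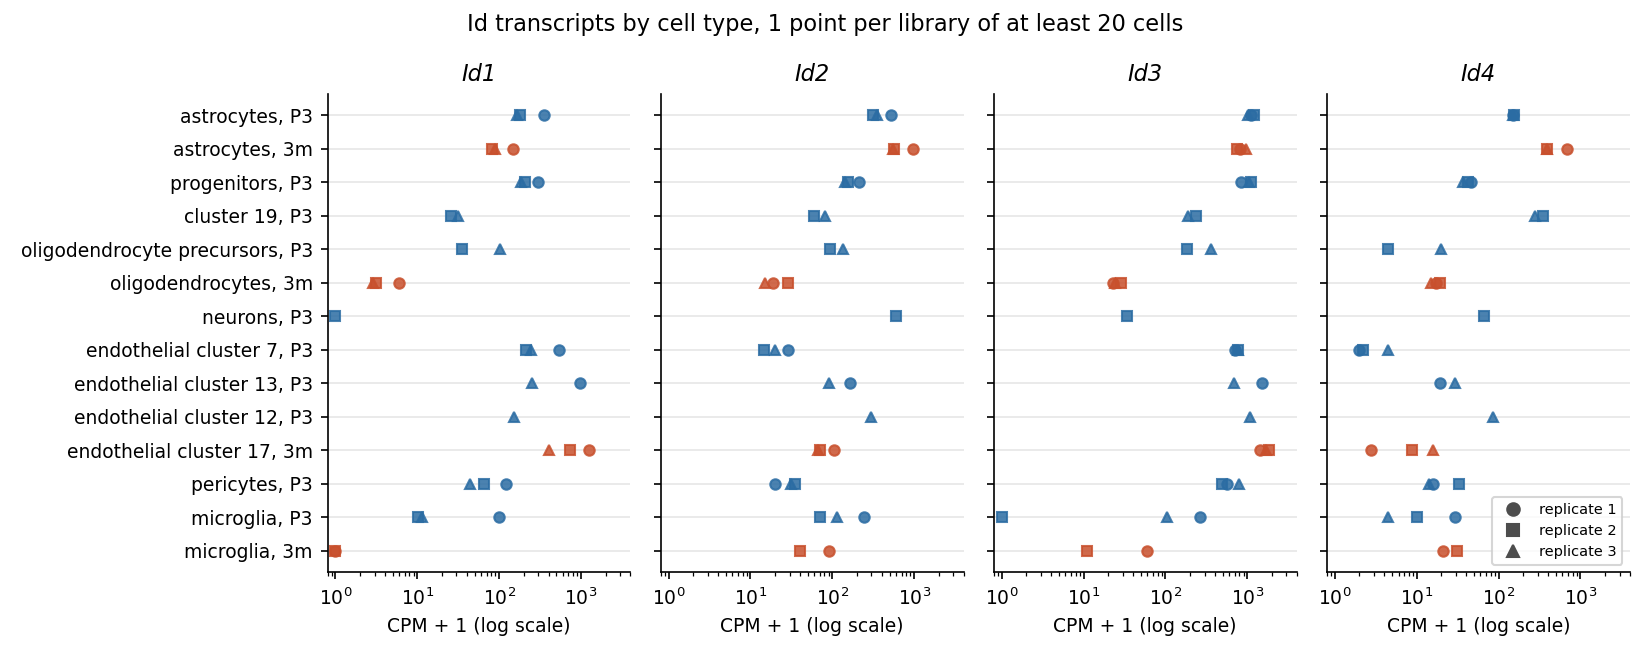
CPM + 1 of each Id gene on a log scale in each cell type and age, 1 point per library with at least 20 cells of the type (blue P3, orange 3m). Id1 and Id3 lie high in endothelial cells, P3 astrocytes and progenitors, but Id1 is at 25.1 and 30.5 CPM in cluster 19. Id4 is at 147 CPM or more in astrocytes at both ages and at 3.52 CPM or less in endothelial cluster 7.

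In microglia, Id2 and Id3 had enough counts for the age test. With 34, 44 and 46 cells at P3 and 20, 23 and 17 at 3m, Id1 and Id4 did not pass the filter on low counts. Id2 had a log2 fold change of -1.25 (SE 0.56, adjusted p = 0.17, edgeR) and Id3 of -1.61 (SE 1.10, adjusted p = 0.39, edgeR), neither called, among 2679 genes of which 10.1% were called, 6.68% with more and 3.43% with less at 3m. By library, Id2 was at 242, 69.8 and 114 CPM at P3 and at 88.9, 39.7 and 18.7 CPM at 3m. Id3 was at 260, 0 and 104 CPM at P3 and at 59.3, 9.93 and 37.5 CPM at 3m. For both genes the libraries of the ages overlapped. Both genes were called in 2 or more alternatives, with no filter on low counts and without P3 replicate 2, the library with no UMI of Id3. The adjusted p in these alternatives was 0.016 and 0.050 for Id2 and 0.0062 and 0.023 for Id3 (edgeR). Without the filter Id1 was called lower as well (adjusted p = 0.0038, edgeR), at 99.7, 9.11 and 10.4 CPM at P3 and without a UMI at 3m, and Id4 was not (log2 fold change 0.36, adjusted p = 0.85, edgeR). Fitting the replicate number as a block also called Id2 (-1.32, adjusted p = 0.046, edgeR).

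The E proteins, partners of the Id proteins, were led by Tcf4 in astroglial cells. Tcf4 was at 522 ± 99.1 CPM at P3 and 624 ± 156 CPM at 3m, with overlapping libraries and a log2 fold change of 0.45 (SE 0.21, adjusted p = 0.092, edgeR). Tcf3 fell from 73.6 ± 11.8 to 19.99 ± 3.73 CPM (log2 fold change -1.66, SE 0.21, adjusted p = 2.3e-05, edgeR). Tcf12 was at 81.8 ± 16.8 and 39.0 ± 10.3 CPM (log2 fold change -0.88, SE 0.21, adjusted p = 0.0038, edgeR), short of the required fold. None of the 3 differed in its age change between the lineages or between cycling and non-cycling cells at the call used.

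Among class II factors of neural lineages, Olig1 and Olig2 were called lower at 3m. Olig2, which marks oligodendroglial and early astroglial cells, fell from 126 ± 27.6 to 11.3 ± 7.76 CPM (log2 fold change -3.19, SE 0.35, adjusted p = 8.5e-06, edgeR). Olig1 and Olig2 were also called in the interaction, with the more negative change in telencephalic cells. Among 7 Hes and Hey repressors, which act below Notch and restrain the same factors, 2 were called lower and none higher. Of all genes tested, 16.3% were called lower and 15.8% higher. The median log2 fold change was -0.60 for the 7 repressors, against -0.04 over all genes tested. Hes1 fell from 332 ± 35.8 to 97.6 ± 18.8 CPM (log2 fold change -1.59, SE 0.19, adjusted p = 2.1e-05, edgeR).

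Genes of the BMP pathway are given by their roles, and the counts called are to be read against the 32.1% of all genes called (15.8% higher and 16.3% lower). Of 20 ligands of the BMP and TGF-beta family, 10 were tested, 4 were called higher and 1 lower, with a median log2 fold change of -0.29. Gdf10, a growth factor of the family, rose from 1.39 ± 0.49 to 89.3 ± 15.3 CPM (log2 fold change 6.17, SE 0.25, adjusted p = 3.8e-09, edgeR). Tgfb2, a TGF-beta ligand, fell from 90.1 ± 10.6 to 24.6 ± 9.30 CPM (log2 fold change -1.64, SE 0.23, adjusted p = 6.2e-05, edgeR). Of 12 receptors, 9 were tested, with a median of -0.13, and 1 was called, Bmpr1b, a type I BMP receptor, which rose from 46.2 ± 9.58 to 101 ± 10.7 CPM (log2 fold change 1.34, SE 0.18, adjusted p = 4.8e-05, edgeR). In telencephalic sub-clusters alone no receptor was called.

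Of 14 extracellular inhibitors and modulators, 9 were tested, with 2 called higher and 2 lower and a median log2 fold change of -0.10. Crim1, a transmembrane protein that binds BMPs, rose from 16.2 ± 2.05 to 30.6 ± 11.5 CPM (log2 fold change 1.15, SE 0.23, adjusted p = 0.0013, edgeR). All 6 Smads were tested, with 1 called higher (Smad9) and 1 lower and a median of -0.66. Smad5, which carries BMP signals to the nucleus, fell from 56.0 ± 11.3 to 19.1 ± 5.57 CPM (log2 fold change -1.32, SE 0.23, adjusted p = 0.00041, edgeR). Among 14 feedback inhibitors and other targets of BMP, 11 were tested, 2 were called higher (Msx1 and Atoh8) and 2 lower (Skil and Dlx2), with a median of 0.11. Skil, a repressor of Smad signalling, fell from 61.4 ± 12.2 to 8.89 ± 3.28 CPM (log2 fold change -2.53, SE 0.27, adjusted p = 5.9e-06, edgeR).

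Counts of genes that act on Id proteins or below them are to be read against the 16.3% of all genes called lower at 3m. In the cycling comparison the share called higher was 7.32%. Of 4 genes of Id protein turnover, with a median log2 fold change of -0.67, 2 were called lower, and Usp1, whose enzyme removes ubiquitin from Id proteins, fell from 75.0 ± 12.2 to 19.5 ± 2.99 CPM (log2 fold change -1.74, SE 0.19, adjusted p = 9.5e-06, edgeR). Both called genes, Usp1 and Fzr1, were called higher in cycling than in non-cycling cells at P3. Of 7 Cdk inhibitors, with a median of -1.35, 2 were called lower, among them Cdkn2c, from 44.2 ± 4.06 to 5.68 ± 2.56 CPM (log2 fold change -2.84, SE 0.26, adjusted p = 1.7e-06, edgeR), and 3 were called higher in cycling cells. Of the immediate early genes, the largest fall was in Fosb, at 40.5 ± 19.6 CPM at P3 and without a UMI in any 3m library, at least 58.0-fold lower against a floor of 3 UMIs over the group.

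Genes whose levels were most like each member were sought over 24 groups of cluster and age with at least 50 cells, among 6368 named genes with a mean of at least 20 CPM. The groups share libraries, and the Pearson correlations of log2(CPM + 1) are a description. For Id1 they were Myo10 (r = 0.92), Id3 (0.92) and Slc38a3 (0.90), and for Id3 they were Id1 (0.92), Trib2 (0.87) and Nrarp (0.87). For Id2 the 3 closest were Fndc5 (0.91), Gabbr2 (0.87) and Ntm (0.86), and for Id4 they were Scg3 (0.94), Ntrk2 (0.92) and Nkain4 (0.92). Id4 correlated with Id1 at 0.12 and with Id3 at 0.24, and with Id2 at 0.62. Id2 correlated with Id1 at 0.50 and with Id3 at 0.62.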

How the data were processed

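Single-cell RNA-seq (10x Chromium, 3′ kit) of 6 striatal ACSA2-enriched preparations was analysed, with age and replicate taken from the labels. The deposited table held raw UMI counts per gene and barcode. For it the authors aligned to mm10 and counted UMIs with Cell Ranger, and merged the libraries with Seurat (version 3.1.1 per the labels). A deposited table gave the authors' cluster names, sub-clusters, pseudotime score and its bin for the cells they kept (over 500 genes, under 10% mitochondrial UMIs). The score has no unit. Doublets were not removed here.

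Members and gene lists were chosen with earlier results of these data known. Cells are not replicates, so counts were summed per library and tested across libraries with edgeR 4.0.16 (R 4.3.3, quasi-likelihood, TMM, filterByExpr, two-sided, Benjamini-Hochberg over all genes tested). The cycling and lineage fits had library as a block. Genes were called at an adjusted p no higher than 0.05 with a log2 fold change of 1 or more in size. Shares were compared by exact permutation tests over libraries (SciPy). CPM were computed from total counts, and SEs are the log2 fold change divided by the square root of its F. Approximate intervals are 1.96 SE each way. The scripts were tested on simulated data. The intervals include the spread between libraries, whereas floors cover counting error only. Astroglial totals were 1157485 to 1843998 UMIs at 3m and 22327104 to 30617140 at P3, so low genes are less precise at 3m. Whether counting used strand is not given in the sources used here. The genes antisense to Id4 had counts of their own, and a part of antisense reads in the Id4 counts was not tested.

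The text names the members, the 3 E proteins, and, from each other list, the called gene with the largest rise and fall among those with non-overlapping libraries and at least 20 CPM in the higher group. Further names (Olig1, Smad9, Msx1, Atoh8, Dlx2, Fzr1) were added after their values were seen, to spell out small counts. The list of class II factors is not reported in full here. Alternatives covered scaling, the count filter, DESeq2 1.42.0, thinning, cell filters, sub-clusters and each library left out.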

Additional observations from a re-analysis of the deposited data

Results flagged for a closer look

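The age change (3m over P3, log2) differed between telencephalic and non-telencephalic sub-clusters for all 4 members by a test of the interaction itself. Telencephalic minus non-telencephalic, the differences were -1.59 for Id1, -2.29 for Id2, -1.09 for Id3 and 3.05 for Id4 (adjusted p = 0.00016, 1.0e-07, 0.0025 and 5.9e-12, edgeR). Of 10181 genes, 17.1% were called in this test. The directions by library were clearest for Id4, where telencephalic cells had the lower level in 3 of 3 libraries at P3 and the higher level in 3 of 3 at 3m. Distant single libraries were not looked for, since each group held 3.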

How the results depend on the processing

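In the astroglial comparison, Id4 was called higher in 18 of 19 alternatives and Id2 in 16 of 19, while Id3 was called in none. Leaving out 1 library at a time moved the log2 fold change from -1.29 to -0.56 for Id1, from 0.88 to 1.48 for Id2, from -0.35 to -0.02 for Id3 and from 1.75 to 2.21 for Id4. Id1 was past the required fold with no scaling beyond library totals (-1.14), no filter on low counts (-1.07), telencephalic sub-clusters alone (-1.13) and a stricter cell filter (-1.52, with 12 cells left in 3m replicate 1). Id2 was not called in telencephalic sub-clusters alone (0.71) or with the stricter cell filter (0.77). Non-telencephalic sub-clusters alone, added after seeing the data, gave 0.38 for Id1, 0.96 for Id3 and -0.26 for Id4, and without cells holding 2 or more UMIs of other types' markers Id3 was at 0.019. No scaling moved the median of all genes from -0.04 to -0.24 and gave 1753 genes higher and 2790 lower, against 2140 and 2204. Genes called numbered 4344, against 2603 in non-telencephalic sub-clusters and 2697 after thinning the sums to the smallest total, where fewer UMIs were tested.

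In cycling cells, 1406 genes were called, against 2437 without thinning and 336 in sub-clusters 2, 6 and 8. Unthinned, Id2 was called at -1.17, and in telencephalic and progenitor sub-clusters (both sets of sub-clusters were added after seeing the data) at -1.20, where Id4 was at -0.55 and no longer called. Id4 was at 0.83 in sub-clusters 2, 6 and 8. Id1, not called, was at -0.061 to 0.29 without 1 library, -0.21 in telencephalic and progenitor sub-clusters and -0.23 in sub-clusters 2, 6 and 8. Without the replicate block (library) 1120 genes were called, and no member's call changed.

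In the lineage comparison, Id1, Id2 and Id4 were called in 11 of 11 alternatives and Id3 in 8 of 11, at -0.96 in DESeq2 and -1.27 to -0.71 without 1 library. No replicate block there gave -1.40, -2.09, -1.17 and 3.13 for Id1 to Id4. Microglia had 271 genes called, against 513 without the count filter and 125 to 255 without 1 library.

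In telencephalic sub-clusters alone the Id2 share of Id UMIs differed by 7.38 points and the Id4 share by 19.5, and the share of cells with a UMI by 16.1 points for Id2, -7.23 for Id3 and 46.3 for Id4. The cell share of Id2 differed by 18.8 points when thinned to 1000 UMIs and by 13.1 unthinned, that of Id1 by -20.5 unthinned. Without 1 library, the Id UMI shares differed by -9.08 to -5.56 points (Id1), 10.7 to 15.4 (Id2), -24.5 to -15.8 (Id3) and 13.4 to 16.8 (Id4), and the cell shares by -15.6 to -5.99, 24.0 to 32.8, -1.48 to 5.98 and 26.6 to 36.9. The causes were not tested.

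Same-numbered libraries of the ages correlated in their deviations at 0.25, 0.11 and 0.06, and P3 replicate 3 correlated more with 3m replicate 2 (0.15), so the numbers were not taken to pair them. With the replicate block 4420 astroglial genes were called, with -0.92, 1.21, -0.17 and 2.06 for Id1 to Id4 and no change of call.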
